A study of Mus musculus with 26 samples.

Results

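The pancreatic acinar cell makes digestive proteases as inactive precursors (zymogens), packs them into granules and secretes them into the duct. In the gut trypsin is switched on by enteropeptidase and then activates the other zymogens. In pancreatic carcinoma, loss of acinar tissue and its conversion to duct-like cells are well described, so zymogen transcripts in a whole tumour are commonly read as residual acinar tissue. Transcripts of 9 protease genes were followed here in KPC tumours: the trypsinogens Prss2 and Try4, the chymotrypsinogens Ctrb1 and Ctrl, the elastases Cela1, Cela2a and Cela3b, and the carboxypeptidases Cpa1 and Cpb1. They were chosen by symbol, and all 9 were among the 16322 genes with a value in each tumour and among the 16296 that passed the filter on low values.

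The 12 libraries came from whole tumours of KPC mice, an engineered strain that develops carcinoma of the pancreas through Cre recombinase. The labels give no promoter for the Cre, no age, and no statement that each library is a separate animal, so p-values measure the spread between these libraries. There were 7 tumours labelled vehicle control, with no day given, and 5 labelled GS9820 treated at 14 days. GS9820 blocks the delta isoform of phosphoinositide 3-kinase, which is found mainly in leukocytes. Values are the deposited log2 expression values, named log2 RPKM (per length and library size) by the authors. All differences are on that log2 scale, where 1 unit is a doubling. Sequencing depth is unknown.

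Several tumours stood apart before any comparison of groups. Vehicle tumours 1 and 7 had the lowest mean of the 9 protease genes, 3.32 and 3.45, against 6.98 to 11.65 in the other 10. Vehicle tumour 1 also had the lowest mean of 11 ductal and carcinoma epithelium markers (5.40, against 7.61 to 9.36 in the other tumours). Treated tumour 3 had a mean of 11.11 for 5 hepatocyte markers, against 0.22 to 6.35 elsewhere. Treated tumour 1 had a mean of 11.16 for 4 small intestine markers, against 1.29 to 5.24 elsewhere. In bulk tissue, fewer acinar cells and less protease RNA per acinar cell cannot be told apart.

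The genes lie on 5 mouse chromosomes (GENCODE M21, GRCm38). Prss2 (ENSMUSG00000057163, chromosome 6, 41521787 to 41525079) and Try4 (ENSMUSG00000054106, chromosome 6, 41302269 to 41305532) belong to 1 trypsinogen block, and Cpa1 (ENSMUSG00000054446, chromosome 6, 30639218 to 30645363) lies elsewhere on that chromosome. Ctrb1 (ENSMUSG00000031957, 111686519 to 111691010) and Ctrl (ENSMUSG00000031896, 105932003 to 105933862) are on chromosome 8. Cela2a (ENSMUSG00000058579, 141814962 to 141826160) and Cela3b (ENSMUSG00000023433, 137420999 to 137430540) are on chromosome 4. Cela1 (ENSMUSG00000023031, 100674421 to 100687921) is on chromosome 15 and Cpb1 (ENSMUSG00000011463, 20248264 to 20275733) on chromosome 3.

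The sequence before each gene's transcription start was searched for short motifs. In acinar cells the trimeric factor PTF1, built around Ptf1a and Rbpjl, is known to bind an E-box together with a TTCCCA-type core. The 250 bases before the start were searched on both strands for the E-box CACCTG, for TTCCCA, for the TATA box TATAAA and for CAAGGTCA, a sequence bound by NR5A2. No 2 of these motifs overlapped in the windows printed. CACCTG was found in 7 of the 9 windows, and in 17.2% of 32817 mouse promoter windows of the same length. TTCCCA was found in 5 of 9 and in 21.6%. Both occurred anywhere in the same window in 3 of 9 (Prss2, Cela2a and Ctrl) and in 3.91%, and their spacing was not part of the search. CACCTG and TTCCCA began at -169 and -111 from the start in Prss2 and at -218 and -85 in Cela2a. The start used for Cela2a was 141826005, whereas its GENCODE gene reaches 141826160 on the minus strand. Its TTCCCA match therefore lies within the GENCODE gene. In Ctrl CACCTG began at -149 and -93, and TTCCCA at -189. TATAAA was found in 3 of 9 (Prss2, Try4 and Cela1) and in 12.4%, and CAAGGTCA in 0 of 9 and in 1.34%. These matches describe letters in the windows and do not show binding.

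Windows of 4 genes are printed from RefSeq (GRCm38.p6), each 5′ to 3′ on the gene's own strand, with motif matches in capitals. By Pearson's r over the 12 tumours, Prss2 and Ctrb1 were the closest pair, Cela3b was the closest to the mean of the other genes, and Cela1 the least close. By Spearman's rho the closest pair was Prss2 and Try4.
Prss2, chr6:41521526-41521775, plus strand: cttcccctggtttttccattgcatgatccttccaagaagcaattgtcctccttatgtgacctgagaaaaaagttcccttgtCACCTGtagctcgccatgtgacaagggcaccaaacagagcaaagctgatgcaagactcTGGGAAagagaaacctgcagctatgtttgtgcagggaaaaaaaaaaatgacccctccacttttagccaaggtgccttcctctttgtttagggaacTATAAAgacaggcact
Ctrb1, chr8:111691011-111691260, minus strand: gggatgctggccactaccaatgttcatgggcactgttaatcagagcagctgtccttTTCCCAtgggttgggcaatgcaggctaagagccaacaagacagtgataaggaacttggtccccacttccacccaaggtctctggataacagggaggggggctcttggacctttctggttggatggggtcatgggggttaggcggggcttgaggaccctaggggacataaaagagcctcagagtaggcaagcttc
Cela3b, chr4:137430521-137430770, minus strand: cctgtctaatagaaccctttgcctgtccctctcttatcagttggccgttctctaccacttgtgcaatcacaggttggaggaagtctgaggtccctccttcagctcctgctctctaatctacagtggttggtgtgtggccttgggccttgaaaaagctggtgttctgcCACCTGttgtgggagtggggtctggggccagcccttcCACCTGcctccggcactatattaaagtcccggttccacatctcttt
Cela1, chr15:100687921-100688170, minus strand: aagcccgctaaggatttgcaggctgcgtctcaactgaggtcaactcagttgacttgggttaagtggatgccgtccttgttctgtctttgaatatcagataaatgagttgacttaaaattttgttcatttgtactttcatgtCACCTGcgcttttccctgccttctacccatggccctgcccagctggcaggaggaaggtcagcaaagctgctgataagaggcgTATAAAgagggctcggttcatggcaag
Counted from the transcription start, the CACCTG of Prss2 began at -169 and its TTCCCA match, read as TGGGAA, at -111. The single match of Ctrb1 was TTCCCA at -194. Cela3b had 2 E-boxes, at -83 and -46, and no TTCCCA. Cela1 had an E-box at -109 and a TATA box at -27.

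Levels of the 9 genes differed by orders of magnitude between tumours. Together they made up 0.00698% of the summed unlogged values in vehicle tumour 1 and 2.32% in vehicle tumour 6, a 333-fold range. Their share was 0.0101% in vehicle tumour 7, 0.126% in treated tumour 3, 0.244% and 0.296% in vehicle tumours 3 and 4, and 0.575% in vehicle tumour 5. It was 1.02% and 1.11% in treated tumours 5 and 1, 1.75% in vehicle tumour 2, and 2.10% and 2.25% in treated tumours 2 and 4. In the richest tumour 7 of the 9 genes were among the 100 highest of all genes, and in vehicle tumours 1 and 7 none was among the 1000 highest. Vehicle tumours held both the lowest and the highest share. By the mean log2 value of the 9 genes, treated tumour 4 (11.65) and vehicle tumour 6 (11.63) were the highest.

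**Figure D1:**
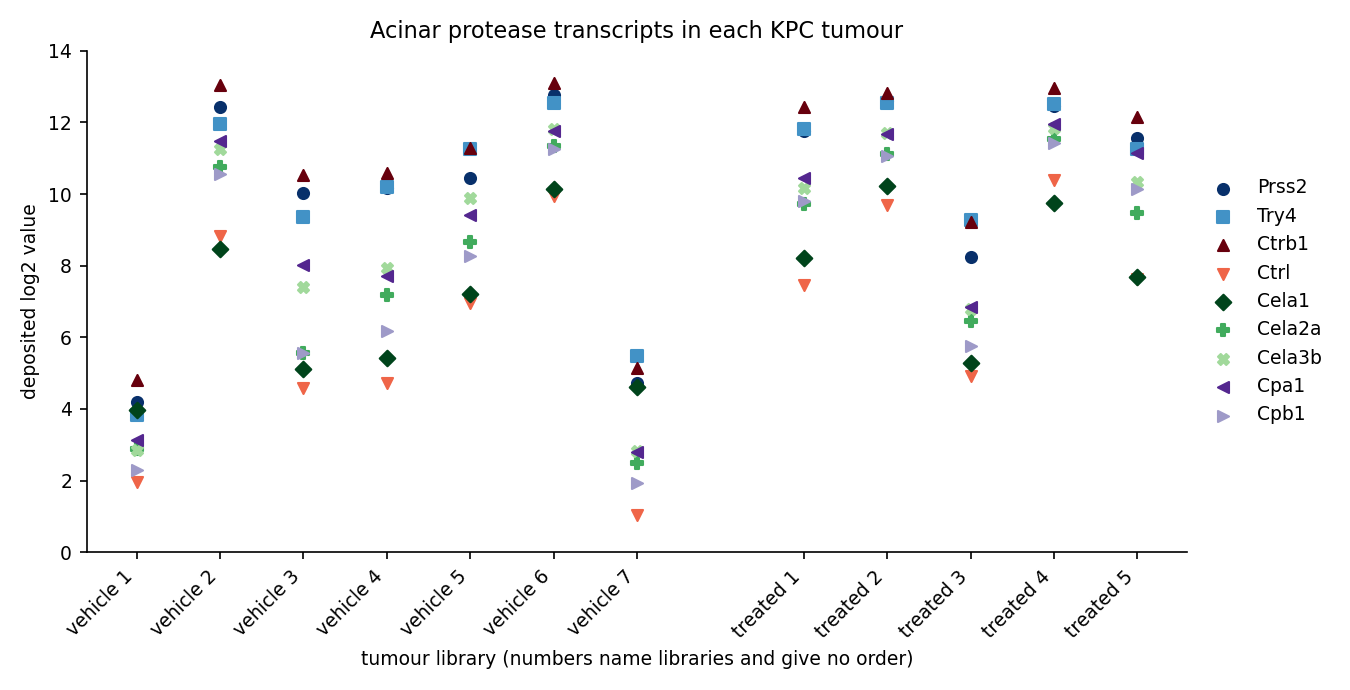
Deposited log2 value (vertical axis) of the 9 protease genes in each of the 7 vehicle and 5 GS9820-treated tumours (horizontal axis), 1 marker per gene. All genes are low in vehicle tumours 1 and 7, intermediate in vehicle tumours 3 and 4 and treated tumour 3, and high in vehicle tumour 6 and treated tumours 2 and 4.

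Trypsinogen transcripts were among the most abundant. Prss2, an anionic trypsinogen, ran from 4.20 to 12.77 in vehicle tumours with a median of 10.17. In treated tumours 1 to 5 it stood at 11.76, 12.60, 8.24, 12.46 and 11.57. The 4 treated tumours other than tumour 3 lay above 5 of the 7 vehicle tumours, and vehicle tumours 2 (12.42) and 6 (12.77) lay among or above them. Try4, a further trypsinogen of the block, ran from 3.82 to 12.55 in vehicle tumours (median 10.19) and stood at 11.82, 12.55, 9.28, 12.51 and 11.25 in treated tumours 1 to 5. Its lowest tumour was vehicle 1, while vehicle 7 (5.49) was the next. The transcripts of Try4 and Try5 were identical at 97.1% of 801 aligned bases and those of Prss2 and Try4 at 90.9% of 762, so the authors' counting may have split reads between these copies and their separate levels are uncertain.

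Chymotrypsinogens held both ends of the range. Ctrb1, the chymotrypsinogen B gene, was the highest of the 9 genes in 10 of the 12 tumours. It ran from 4.82 to 13.11 in vehicle tumours (median 10.58) and stood at 12.42, 12.83, 9.22, 12.96 and 12.15 in treated tumours 1 to 5. In vehicle tumours 6 and 2 it was the 12th and 13th most abundant of all genes. Ctrl, which encodes a chymotrypsin-like protease, was the lowest of the 9 in 10 tumours. It ran from 1.04 to 9.93 in vehicle tumours (median 4.71) and stood at 7.47, 9.70, 4.93, 10.40 and 7.63 in treated tumours. Both genes put treated tumour 3 below vehicle tumour 5.

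The elastases lay between these. Cela3b ran from 2.83 to 11.82 in vehicle tumours (median 7.92) and stood at 10.16, 11.71, 6.80, 11.84 and 10.33 in treated tumours. Cela2a ran from 2.50 to 11.35 (median 7.17) and stood at 9.72, 11.13, 6.46, 11.53 and 9.47. Both had the same tumours at each end. Exons of Cela2a overlap those of Ctrc on the same strand and of Casp9 on the other, and the use of strand in counting is not given in the sources used here. Cela3b and Cela3a transcripts were identical at 94.5% of 916 aligned bases, so reads may have been split there too. Cela1 had the narrowest range of the 9, 77-fold between its lowest and highest tumour, against 314-fold to 722-fold for the others. It ran from 3.97 to 10.14 in vehicle tumours (median 5.43) and stood at 8.21, 10.23, 5.29, 9.74 and 7.67 in treated tumours.

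Carboxypeptidases trim residues from the end of the peptides that the other enzymes release. Cpa1 ran from 2.79 to 11.76 in vehicle tumours (median 8.01) and stood at 10.44, 11.67, 6.83, 11.96 and 11.15 in treated tumours. Cpb1 had the widest range of the 9, 722-fold. It ran from 1.93 to 11.25 in vehicle tumours (median 6.18) and stood at 9.81, 11.07, 5.77, 11.43 and 10.15 in treated tumours. For Cpb1 treated tumour 3 lay just above vehicle tumour 3 (5.57), and for Cpa1 it lay below it (8.01).

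Over the 12 tumours the order of mean levels was Ctrb1 (10.67), Try4 (10.17), Prss2 (10.12), Cpa1 (8.86), Cela3b (8.73), Cela2a (8.10), Cpb1 (7.85), Cela1 (7.17) and Ctrl (6.51). Neighbours in this order were compared within each tumour. Ctrb1 lay above Try4 by 0.50 ± 0.48 (SD, n = 12), Prss2 above Cpa1 by 1.25 ± 0.61 in 12 of 12 tumours, and Cela3b above Cela2a by 0.63 ± 0.49. The other neighbours did not differ beyond the spread of their difference. Try4 and Prss2 differed by 0.05 ± 0.54, Cpa1 and Cela3b by 0.13 ± 0.35, and Cela2a and Cpb1 by 0.25 ± 0.44. For Cpb1 and Cela1 the difference was 0.68 ± 1.49, and for Cela1 and Ctrl it was 0.66 ± 1.12. Cpb1 lay above Cela1, and Cela1 above Ctrl, in 10 of 12 tumours, as did Ctrb1 above Try4. None of these differences was tested.

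The comparison of treated with vehicle tumours asked whether the inhibitor went with a different level of these genes. All 9 genes were higher on average in treated tumours, and 0 of 9 passed the limma threshold of an adjusted p of 0.05 (Benjamini-Hochberg over all genes) or an unadjusted p under 0.05. Over all 16296 genes 2.2% passed by adjusted p (0.878% higher in treated tumours) and 24.4% by unadjusted p (9.14% higher in treated tumours). Over the same genes 45.3% were higher on average in treated tumours, and the median difference was -0.06. The median difference of the 9 genes was 2.46. Vehicle and treated tumours overlapped for every gene, and for each gene vehicle tumours 2 and 6 lay above the treated median.

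Cpb1 had the largest difference, 3.07 ± 1.65 (SE; 95% interval -0.50 to 6.64; limma, adjusted p = 0.269), from 6.57 ± 3.69 (SD, n = 7) to 9.64 ± 2.27 (SD, n = 5). Cela1 had the smallest, 1.81 ± 1.11 (95% interval -0.59 to 4.21; limma, adjusted p = 0.332), from 6.42 ± 2.26 to 8.23 ± 1.95. The differences of Cela2a, Cpa1, Ctrl and Cela3b were 2.68 ± 1.56, 2.65 ± 1.60, 2.59 ± 1.51 and 2.46 ± 1.62. Those of Try4, Ctrb1 and Prss2 were 2.25 (95% interval -0.79 to 5.29), 2.13 (-1.05 to 5.31) and 2.08 (-1.17 to 5.32). Adjusted p of these 7 ran from 0.308 to 0.411 (limma). Every interval held 0 and also differences above 4, so neither no change nor a large rise is outside what these tumours allow. Without vehicle tumours 1 and 7, a choice made after seeing the data, the median difference was 0.73 and again 0 of 9 genes passed.

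**Figure D2:**
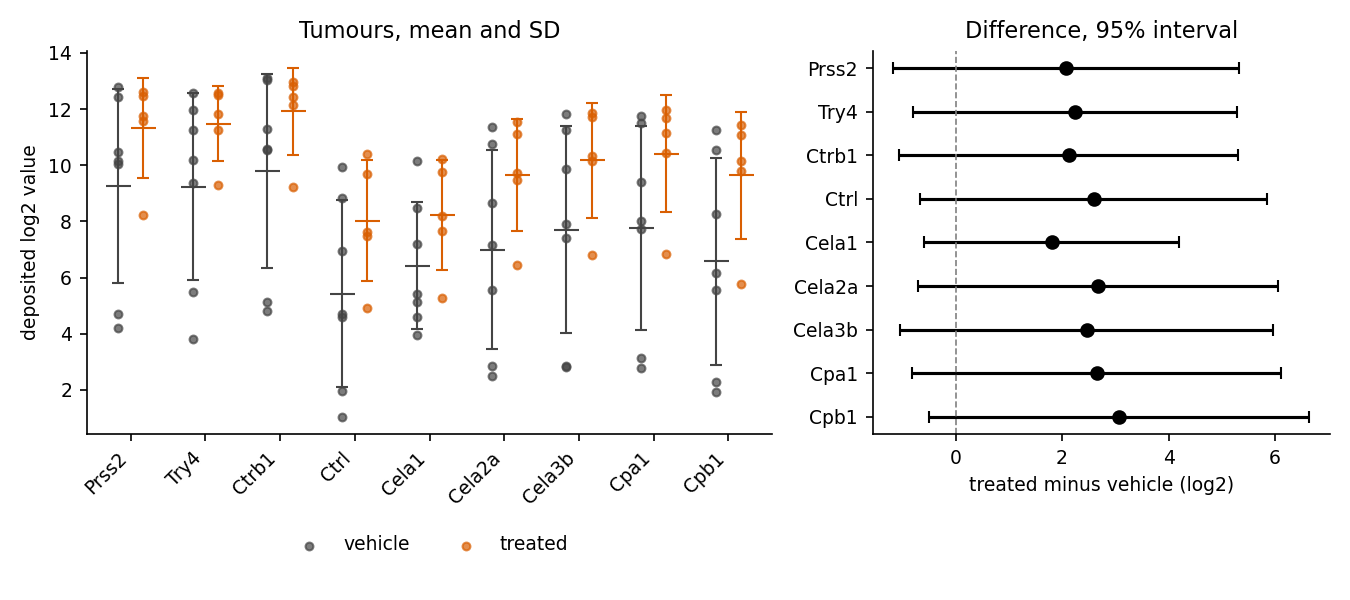
Left, deposited log2 value of each gene in vehicle (grey) and treated (orange) tumours, with points for tumours and bars for mean and SD (n = 7 and 5). Right, treated minus vehicle difference on the log2 scale with its 95% interval from limma; all 9 points are above 0 and all 9 intervals cross it.

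The spread between tumours was wider among vehicle tumours. For the mean of the 9 genes the group values were 7.68 ± 3.32 (SD, n = 7, vehicle) and 10.10 ± 1.88 (SD, n = 5, treated). Its range was 8.31 in vehicle and 4.67 in treated tumours. The difference in spread was not tested.

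The 9 genes rose and fell together over the tumours. Over the 36 pairs, Pearson's r ran from 0.851 (Cela1 and Ctrb1) to 0.998 (Prss2 and Ctrb1), with a median of 0.970. Spearman's rho ran from 0.930 to 0.997, with a median of 0.961. Permutation p was 1e-05 to 4e-05 for r, where 1e-05 is the smallest that 100000 resamples can give, and 1e-05 to 5e-05 for rho (two-sided; adjusted over the 36 pairs, 1.4e-05 to 4e-05 and 1.6e-05 to 5e-05). For every pair the 2 tumours farthest from the median were vehicle 1 and 7, and without them r ran from 0.899 to 0.992, with a median of 0.966. Within the 7 vehicle tumours r ran from 0.835 to 0.999, with a median of 0.974 (exact permutation p 0.0002 to 0.025, adjusted 0.00089 to 0.025). With group means removed the median was 0.964. In the 5 treated tumours no r was computed. All genes of a tumour share its tissue content, library and normalization.

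Pairs within and across enzyme families were similarly close. The 6 pairs within a family had a median r of 0.965 and the 30 pairs across families a median of 0.970. By Pearson's r Prss2 was closer to Ctrb1 (0.998) than to Try4 (0.983), but by Spearman's rho it was closer to Try4 (0.997, the highest of all pairs) than to Ctrb1 (0.972). Ctrl was closer to Cela2a (r = 0.989, rho = 0.986) than to Ctrb1 (r = 0.935, rho = 0.930, the lowest rho of all pairs). These differences were not tested. Cpb1 and Cela2a had an r of 0.994, as had Cela3b and Cpa1.

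**Figure D3:**
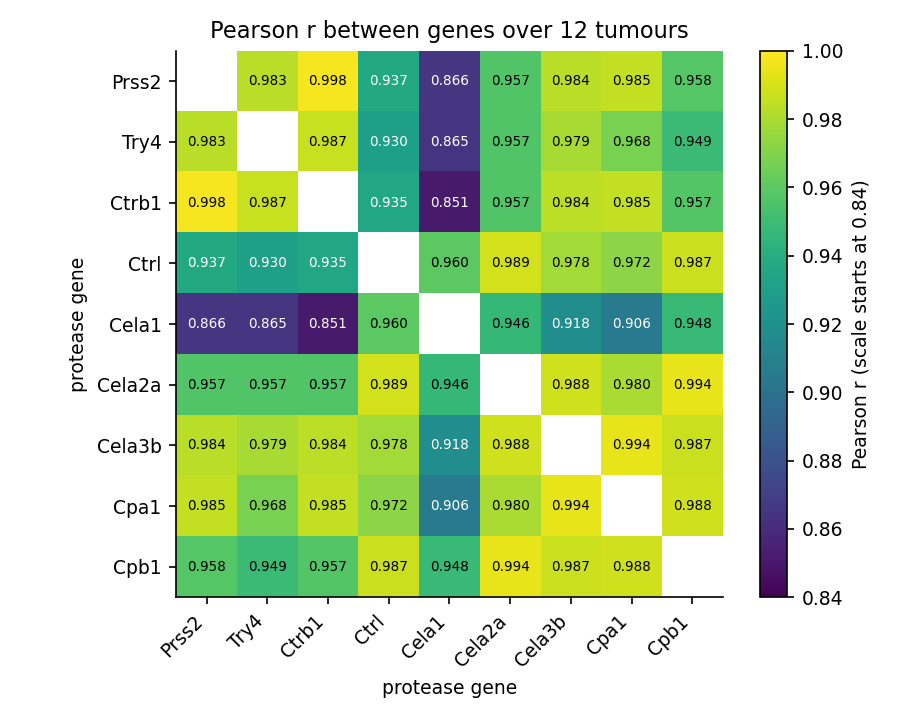
Pearson's r between each 2 of the 9 genes over 12 tumours, with the colour scale starting at 0.84. The row of Cela1 holds the lowest values (0.851 to 0.960), and Prss2 with Ctrb1 the highest (0.998).

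The make-up of the protease transcripts was steadier than their amount. Each gene was set against the mean of the other 8 in the same tumour, as a log2 difference. For Cela3b this difference had an SD of 0.38 over the 12 tumours, where the level itself had an SD of 3.25. The SDs were 0.48 for Cpa1, 0.50 for Cela2a, 0.63 for Prss2, 0.64 for Ctrl, 0.65 for Ctrb1, 0.68 for Cpb1 and 0.73 for Try4, against SDs of level from 2.84 to 3.43. In vehicle and treated tumours these differences had means of 1.76 ± 0.77 and 1.39 ± 0.33 (SD) for Prss2, of 2.37 ± 0.74 and 2.05 ± 0.52 for Ctrb1, and of -1.25 ± 0.63 and -0.51 ± 0.52 for Cpb1. Vehicle tumours 3 and 4 had the highest share of Ctrb1 (3.58 and 3.15 above the other 8) and of Prss2 (3.02 and 2.68).

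Cela1 did not keep its place. It lay 0.73 and 1.30 above the mean of the other 8 genes in vehicle tumours 1 and 7, and below it in the other 10 tumours (differences of -2.82 to -1.43). In those 2 tumours, where the other genes were at their lowest, Cela1 had rank 3 and rank 4 of the 9, and elsewhere rank 8 or 9. Its slope on the mean of the other genes was 0.67, against 0.92 to 1.17 for the other genes. Without vehicle tumours 1 and 7 the slope of Cela1 was 1.07, within the 0.66 to 1.34 of the others, so its lower slope rests on those tumours. The abundant genes had the lowest slopes there, 0.66 for Try4, 0.69 for Ctrb1 and 0.75 for Prss2. In the richest tumours these 3 genes sat near the top of a value distribution that all libraries share, which bounds how far they can differ: Try4, as the 21st most abundant gene, had 12.55 in both vehicle tumour 6 and treated tumour 2. The part of this ceiling in the slopes was not tested.

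**Figure D4:**
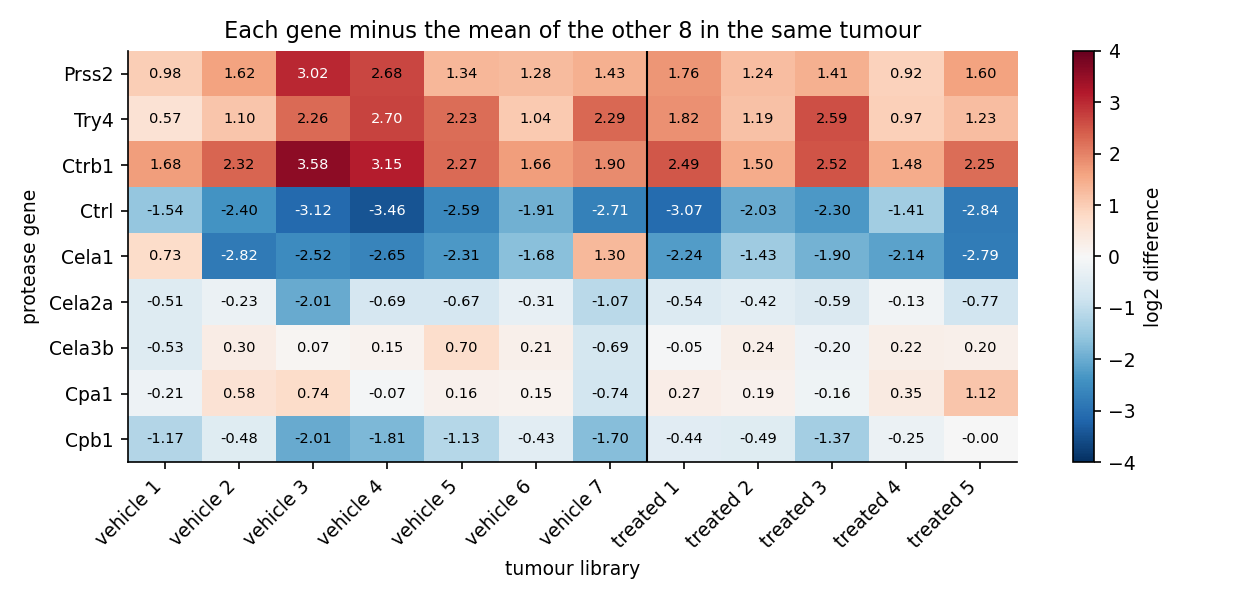
Log2 difference between each gene and the mean of the other 8 genes in the same tumour, for 7 vehicle (left of the line) and 5 treated tumours; red is above and blue below the others. Cela1 is above 0 in vehicle tumours 1 and 7 (0.73 and 1.30) and below 0 in every other tumour.

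Other acinar genes moved with the proteases. Among the 16287 other genes tested, 45 (0.276%) had an r of at least 0.9 with the mean of the 9 genes over the 12 tumours, and the median gene had an r of -0.07. Of the 45, 28 were in the acinar lists used here. Among the named genes most like the mean were Cela3a (0.993), Amy1 (0.993), Pnliprp2 (0.985), Pnliprp1 (0.984), Rnase1 (0.984), Reg2 (0.984), Try10 (0.982), Prss1 (0.982) and Reg3a (0.981). They encode an elastase, an amylase, pancreatic lipase-related proteins, a ribonuclease, Reg proteins and trypsinogens. These r values rank genes and carry no test. Transcripts of Try10 and Prss1 were identical to Try4 at 94.8% and 93.3% of aligned bases. As with Cela3a and Cela3b, reads may have been split between them, and the part of this in r was not tested.

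Of 13 other zymogen and trypsin-family genes, all 13 were higher on average in treated tumours, 0 passed the limma threshold and 1 had an unadjusted p under 0.05 (median 2.09). 12 of the 13 had an r of at least 0.9 with the mean of the 9 proteases. The exception, 1810009J06Rik, had an r of 0.776 and a difference of 3.03 ± 1.26 (limma, adjusted p = 0.167). The trypsinogen-like 2210010C04Rik stood at 2.90 ± 1.62. Transcripts of Try5, Try10, Prss1, Gm5771, Prss3 and Gm10334 were identical to Try4 at 91.6% to 97.1% of aligned bases. For 2210010C04Rik and 1810009J06Rik this was 76.4% and 71.5%. Reads may have been split between close copies, and exons of Ctrc overlap those of Cela2a. The part of shared reads in these r values was not tested. Of 16 acinar lipase and granule genes, all 16 were higher, 0 passed by adjusted or unadjusted p (median 2.47), and 14 had an r of at least 0.9. Rnase1 stood at 3.06 ± 1.59 and the granule lectin gene Zg16 at 2.51 ± 1.29.

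Genes that control protease activity did not share 1 pattern. Of 13 measured genes of activation and inhibition, 10 were higher and 3 lower, 0 passed the limma threshold and 4 had an unadjusted p under 0.05 (median 1.39). The acinar trypsin inhibitor gene Spink1 had an r of 0.897 with the proteases and ran from 0.51 to 9.03 over the tumours, with a difference of 2.65 (limma, adjusted p = 0.233). The pancreatic serpin gene Serpini2 had an r of 0.924. Ctsb, which encodes cathepsin B, a lysosomal protease able to activate trypsinogen, stayed between 9.17 and 11.08 and had an r of -0.600. The liver-derived inhibitors Serpina1d and Serpina1b stood at 4.05 ± 1.54 and 4.00 ± 1.71, with r of 0.047 and 0.085. The part of the liver transcripts of treated tumour 3 in these was not tested.

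Among regulators of acinar genes, 1 receptor gene and no transcription factor gene reached an r of 0.9. Of 7 acinar transcription factor genes, all 7 were higher, 1 passed the limma threshold and 3 had an unadjusted p under 0.05 (median 1.09), and 0 had an r of at least 0.9. Nr5a2, a nuclear receptor that maintains acinar identity, rose by 2.28 ± 0.41 (limma, adjusted p = 0.0219), from 2.16 ± 0.88 (SD, n = 7) to 4.44 ± 0.48 (SD, n = 5), without overlap of the groups. The share of all genes without overlap is not given here, so whether this is unusual is unknown. The adjusted p of Nr5a2 was 0.0515, 0.0707, 0.0732 and 0.0511 without vehicle tumour 4, treated tumour 2, treated tumour 4 and treated tumour 5, and 0.0621 without vehicle tumours 1 and 7. Over all settings tried its adjusted p ran from 0.0072 to 0.0732, and its difference was positive in each. Its r with the proteases was 0.767. The PTF1 subunit genes Rbpjl and Ptf1a had r of 0.886 and 0.849 and differences of 3.56 (limma, adjusted p = 0.101) and 2.07 (adjusted p = 0.231). Of 4 measured secretagogue receptor genes all 4 were higher, 0 passed and 1 had an unadjusted p under 0.05 (median 1.58). Cckar, the cholecystokinin receptor of acinar cells, had an r of 0.923, and the secretin and VIP receptor genes Sctr and Vipr1 stood at 1.69 ± 0.74 and 1.48 ± 0.75. The medians of Vipr1 were close, 2.66 (treated) and 2.52 (vehicle), and its highest treated value was 7.31. Those of Sctr were 2.64 and 0.26.

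Means of other cell type markers had an r with the protease mean of 0.485 (islet), 0.635 (ductal), -0.100 (B cell) and -0.053 (T cell) over the 12 tumours. The mean of 11 islet markers was 6.19 in vehicle tumour 6 and 6.15 to 8.04 in treated tumours 1, 2, 4 and 5, all rich in proteases. It was 0.77 in vehicle tumour 2, also rich, and 4.49 in vehicle tumour 7, among the poorest. Of these markers 4 passed the limma threshold, all higher in treated tumours (median 4.69), and all 11 had an unadjusted p under 0.05. They were Chgb, Ppy, Chga and G6pc2, which rose by 4.73 ± 1.10, 4.69 ± 1.10, 4.17 ± 0.90 and 3.38 ± 0.80 (limma, adjusted p 0.0371 to 0.0493). Without treated tumour 4 no gene passed the threshold over all genes tested, these 4 included. The part of islet content in the protease levels was not tested. The mean of 11 ductal and carcinoma epithelium markers was 8.76 in vehicle tumour 7, near the 9.22 of vehicle tumour 6, with 0 of 11 past the threshold and 1 at an unadjusted p under 0.05 (median 0.26). The osteopontin gene Spp1 stood at -1.37 ± 0.40 and the chloride channel gene Cftr at 1.35 ± 0.72. In B cells (6 markers, list mean 4.95 in vehicle tumour 7 and 6.04 in treated tumour 4) and T cells (5 markers) 0 genes passed by either p. Their medians were 1.38 and 1.61, with Cr2 at 1.47, Lck at 1.61 and Cd8a at 2.24. Neutrophil, macrophage, hepatocyte, intestine and adipocyte markers likewise had 0 past the threshold, with 1 of 6, 0 of 6, 1 of 5, 0 of 4 and 5 of 5 at an unadjusted p under 0.05. Their medians were -1.21, 0.22, 2.59, 0.99 and 3.71. Named members stood at -2.74 (Il1r2) and -1.17 (Cxcr2) for neutrophils, and at 0.45 (Csf1r) and 0.35 (Cd68) for macrophages. The others were Ttr (2.59) and Ahsg (2.94) of the hepatocyte list, Vil1 (1.17) and Apoa4 (1.92) of the intestine list, and Car3 (5.27) and Adipoq (4.16) of the adipocyte list. By median Apoa4 was lower in treated tumours (-0.24, against 2.52 in vehicle tumours), and its highest treated value was 12.83. The medians of Vil1 were 6.57 (treated) and 6.26 (vehicle). The lowest treated values were 4.27 for Ttr, 2.03 for Ahsg and -0.30 for Alb of the same list, so these hepatocyte markers did not move as 1. Of 6 fibroblast markers 1 passed, Dcn, which rose by 1.62 ± 0.33 (limma, adjusted p = 0.0339; median of the list 0.54).

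**Figure D5:**
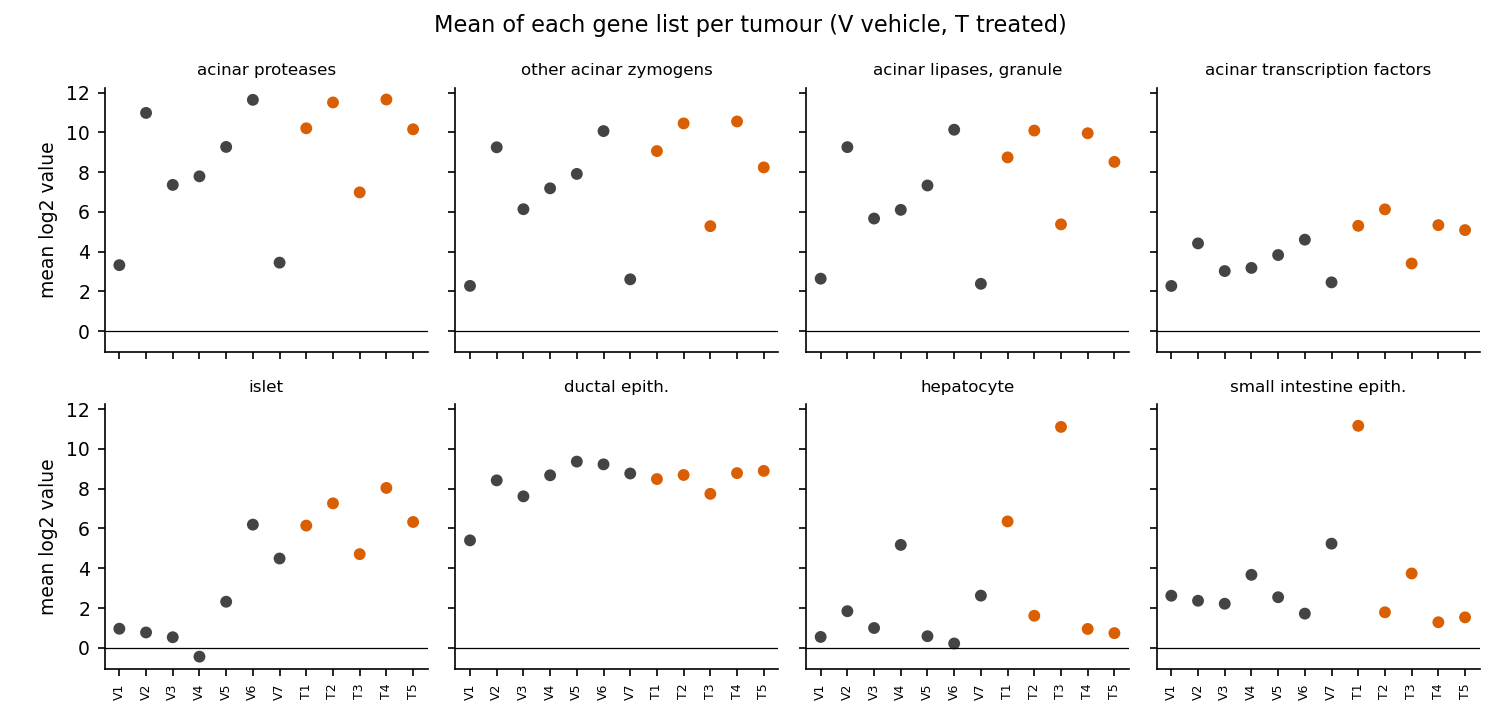
Mean deposited log2 value of 8 gene lists in each tumour (V1 to V7 vehicle, grey; T1 to T5 treated, orange). In the 4 acinar lists V1 and V7 are lowest, and T3 is the lowest of the treated tumours, whereas hepatocyte markers peak in T3 (11.11) and small intestine markers in T1 (11.16).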

How the data were processed

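Whole-tumour RNA of 12 KPC tumours (7 vehicle, 5 treated for 14 days) was sequenced after removal of ribosomal RNA with a stranded kit on 1 HiSeq lane, per the labels' protocols. TopHat2, STAR and limma with build mm10 are named in the submitters' processing notes, without versions or roles. The authors deposited log2 values, named log2RPKM in the file headers. Sorted values differ between tumours by at most 0.861 and unlogged values sum to 1552394 to 1552449 in each, so libraries share nearly 1 distribution, and read counts and depth could not be recovered. Correlations between tumours ran from 0.630 to 0.945, with no identical pair.

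Symbols and positions came from GENCODE M21, and 283 of 16322 genes had no symbol. Genes at 0 or more in at least 5 tumours were tested with limma 3.58.1 (R 4.3.3; mean trend, two-sided, adjusted over all genes). The fit was tested on simulated data. Correlations used permutation in Python 3.11.15 (numpy 2.4.6), transcripts were aligned locally with Biopython 1.88, and figures were drawn with matplotlib 3.10.9. Named are all 9 genes, up to 4 genes of a list past the threshold or else the 2 of smallest p, and the 10 of highest r with the mean of the 9 after leaving out predicted or unnamed gene models (such as Gm5409 and 2210010C04Rik), except that some items are not reported here; Spink1, Serpini2, Ctsb, Ptf1a, Rbpjl and Cckar were added after their values were seen. Of the lists, the symbols Tmprss15, Spink3, Cckbr, Chrm1, Apoa2, Fgb, Fga, Sis, Lct, Muc2, Cd3d and Lep matched no gene with a value. A gene measured under another symbol would not show in this match. The 9 genes and the lists were chosen with earlier results of these data known. Alternatives were other filters, log2 of the value plus 1, quantile normalization, no trend, array weights, a replicate block and each tumour left out.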

Additional observations from a re-analysis of the deposited data

Results flagged for a closer look

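Treated tumour 3 was far below the other treated tumours for 3 of the 9 genes, by Dixon's gap test at 95% in 18 groups of 5 or 7 tumours, where chance flags about 1 in 20 groups and the 9 genes move together. Prss2 was 8.24 there, and the next lowest treated tumour had 11.57 (gap 0.764 of the range). Cpb1 was 5.77, with the next at 9.81 (gap 0.714). Ctrb1 was 9.22, with the next at 12.15 (gap 0.783). The critical value for 5 tumours is 0.71. The share of all genes set apart in this way was not computed, so whether 3 of 9 is unusual for this tumour is unknown. The hepatocyte marker mean of that tumour was 11.11, and its part in these values was not tested. No vehicle tumour was set apart for any of the 9 genes by this test. It measures the gap to the nearest tumour, so it could not single out vehicle tumours 1 and 7, which were low together. For Ctrb1 they had 4.82 and 5.13, and the next lowest vehicle tumour had 10.54.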

How the results depend on the processing

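All 180 recomputed differences of the 9 genes kept their sign and stayed short of the limma threshold, with adjusted p from 0.152 to 0.937. With each tumour left out in turn, the median difference ran from 1.65 to 3.30, and the median r between genes from 0.964 to 0.980. The 7 other planned settings gave median differences of 2.31 to 2.95. Among them, quantile normalization and no filter on low values gave 2.46, as in the main fit. Libraries already share nearly 1 distribution, so quantile normalization could change little. With the replicate block the median difference was 2.31, with 0 of 9 genes past the threshold and 4 at an unadjusted p under 0.05. Shared numbers do not pair the tumours: deviations of same-numbered tumours correlated at -0.18, 0.20, 0.26, 0.09 and -0.08. No treated tumour correlated best with the vehicle tumour of its own number. Over all genes, 359 passed, 2764 with array weights, 166 with the replicate block and 0 (without treated tumour 4) to 1690 (without vehicle tumour 5) with 1 tumour left out. The cause was not tested. Without depth, counting error is unknown, and 7 against 5 tumours of this spread leave intervals over 4 log2 units wide.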

Other observations

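Outside the tumours, 3 of the 9 genes had a value in the 14 libraries of myeloid cells sorted from spleen, which were normalized separately. Cela2a stood at 2.78 ± 0.11 (SD, n = 3) in PMN of the vehicle group and 2.59 ± 0.31 (SD, n = 4) in those of the treated group, and at 1.44 ± 0.15 (n = 3) and 1.58 ± 0.07 (n = 4) in monocytes. Casp9, whose exons overlap those of Cela2a on the other strand, stood at 6.31 ± 0.05 and 6.17 ± 0.06 in PMN and at 5.51 ± 0.15 and 5.66 ± 0.10 in monocytes. Its part in the Cela2a values was not tested. Prss2 stood at 0.94 ± 0.68 and 1.12 ± 1.24 in PMN and Cela1 at 0.72 ± 0.64 and 0.71 ± 0.55. In monocytes both were lower, at -0.95 ± 0.73 and -1.72 ± 1.08 for Prss2 and at -0.60 ± 0.70 and -0.93 ± 0.26 for Cela1. Both genes stood near the low end of the genes listed. Their median percentiles ran from 1.8 (Prss2, monocytes of the treated group) to 12.9 (Prss2, PMN of the treated group). Differences between sorted cells were not tested.

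Among the 17 genes with an r of at least 0.9 that were in none of the acinar lists, 6 belonged to the Reg family: Reg1, Reg2, Reg3a, Reg3b, Reg3d and Reg3g. Others were further amylase copies, Tmed6, Arhgdig, Klk1b5, Rfx6, a transcription factor of endocrine development (0.905), and Gabra4 (0.920), a subunit of the GABA receptor. Mir7076, a microRNA gene within Ctrb1 on the same strand, had an r of 0.908. Its exons do not overlap those of Ctrb1, and the part of unspliced Ctrb1 reads in its value was not tested. Oplah, which encodes an enzyme of glutathione turnover, was the single gene with an r of -0.9 or below (-0.915), over a range of 1.20 log2 units. These genes were chosen after their values were seen.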
